A study of Mus musculus with 912 samples.

Results

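The neuronal pentraxins are the 3 genes Nptx1, Nptx2 and Nptxr, described here across 912 single nuclei of the mouse hippocampus. They were taken by name as 3 of the 42772 genes with a value in the count tables. All nuclei came from wild-type female C57BL6 mice, and RNA was read by SmartSeq2, which makes one full-length library per sorted nucleus. The first experiment held 360 nuclei of mice labelled 7.75 to 9 weeks old that stayed in the home cage (HC) or were killed 1 h after 15 min in an unfamiliar environment (NE). These nuclei were sorted on NEUN, PROX1, CTIP2 and FOS protein, and their labels give a predicted cell type: dentate granule (DG), CA1, CA3, Sub, VIP, Pvalb, Ivy or Th, the last 5 written as the labels have them. The later experiment held 552 DG nuclei, sorted as PROX1+CTIP2+ARC+ without NEUN, from mice taken 4 h or 5 h after one NE (FOS- nuclei only) or 1 h after a second exposure given 4 h after the first. The second exposure was to the same environment (A>A) or to a different one (A>C), and both FOS+ and FOS- nuclei were sorted. HC nuclei were all FOS-. The labels give the later mice ages of 7.75 to 9 weeks. These ages are not used here, because the labels give different ages to nuclei of one mouse.

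Of the 912 nuclei, 818 passed the read and gene thresholds, 35 FOS- nuclei of the first experiment with high Arc were left out, and 783 nuclei of 29 mice were used. Total counts per nucleus ran from 142275 to 5885216 with a median of 1251690. The mouse was the replicate: the level of a gene in a mouse is the mean log2(TPM+1) over its nuclei of one group, given where it had at least 2 nuclei. Mouse numbers restart between exposures, so mouse 8 in HC and mouse 8 at 5 h are different animals. The labels give 4 mouse numbers on 2 dates within one exposure (mouse 4 in HC, mouse 4 at 1 h, and mice 19 and 20 in A>A). Each was counted as 1 mouse, and whether each is 1 animal is not given by the labels, so the numbers of mice carry this doubt. TPM scales reads by transcript length, so levels of different genes can be set side by side. Differences were tested with edgeR on counts summed per mouse and group, and CPM below is the usual depth-scaled count of such sums. The labels held for the cell types: the 3 DG markers averaged 3.80 on the log2(TPM+1) scale in the DG nuclei of the first experiment and 3.33 in the later ones, the VIP markers 7.21 in VIP nuclei, and the glutamatergic marker Slc17a7 7.47 in CA1 nuclei. The label Sub was the least distinct, because its own markers averaged 2.90 in these nuclei and the CA1 markers 2.27.

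Neuronal pentraxins are proteins of excitatory synapses that bind and cluster AMPA-type glutamate receptors. Nptx1 and Nptx2 (also known as NP1 and Narp) are secreted and carry a pentraxin domain. Nptxr is a membrane-anchored member that forms mixed complexes with both and can be released by the metalloprotease encoded by Adam17. Nptx2 is known as an activity-regulated immediate early gene, whereas Nptx1 is best known as a gene with steady expression in neurons.

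In the GENCODE vM21 annotation of GRCm38 (mm10, the build of the files), Nptx1 lies on chromosome 11 from 119538719 to 119547753 on the minus strand. Nptx2 lies on chromosome 5 from 144545902 to 144557478 on the plus strand, and both genes have 5 exons. Nptxr lies on chromosome 15 from 79786351 to 79804766 on the minus strand. It overlaps the read-through gene Npcd, which runs from 79789675 to 79834237 on the same strand and shares 890 of the 5170 exon bases of Nptxr. Reads in those bases can be credited to either gene, so the Nptxr values carry this uncertainty. Npcd took 12.2% of the counts of both genes in the HC DG nuclei (521 counts in 2 nuclei), and at most 0.913% in the 4 h and 5 h nuclei. Counted together, both genes stood at 153 CPM in HC, 669 CPM at 4 h and 577 CPM at 5 h.

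In the home cage Nptx1 was highest in CA3 and DG, and Nptx2 stayed at or under 1.93 in every mouse with at least 2 nuclei. Nptx1 was at 6.15 in mouse 6 and 6.37 in mouse 7 in DG, and at 7.17 in the one CA3 mouse with 2 nuclei. In CA1 it was at 0.48, 3.38 and 5.71 in the 3 mice, and in Sub at 0.57 and 4.68. VIP nuclei of the 2 mice with data were at 0.22 and 1.03, and Pvalb and Th nuclei of 1 mouse each at 0.64 and 0. The order by mean was therefore CA3, DG, CA1, Sub, Pvalb, VIP and Th. The DG mice lay above all CA1 mice, while CA1 and Sub overlapped, as did Pvalb and VIP. The CA1 mouse with the highest Nptx1, mouse 4, also had the highest sum of the 10 glial and vascular markers, 10607 CPM against 213 and 165 CPM in the other CA1 mice, with 4 of the 10 at 0. The part of this signal in the CA1 values was not tested.

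Nptxr, the receptor member, was at 3.39 and 3.99 in the 2 DG mice in HC and at 4.14 in the CA3 mouse. The single CA3 nucleus of HC mouse 4, left out of these levels, was at 8.29 for Nptxr and 9.11 for Nptx1. CA1 mice were at 2.01, 3.04 and 5.65, Sub mice at 1.22 and 3.02, and VIP mice at 1.35 and 2.12. The CA1 mice overlapped with both DG and Sub, and both Sub mice lay below both DG mice. The VIP mice overlapped with Sub and with CA1. In VIP nuclei, Nptxr had a count in 10 of 22 and Nptx1 in 5 of 22.

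Nptx2, the inducible member, had a count in 3 of 25 DG nuclei (12.0%, exact 95% interval 2.55 to 31.2%), with mouse means of 0.32 and 0.76. One of those 3 was the single DG nucleus of HC mouse 3, at 5.04, and the single nucleus of HC mouse 5 was at 0. By their labels these nuclei were sorted as PROX1-CTIP2+ and PROX1+CTIP2-, unlike the PROX1+CTIP2+ nuclei of all DG mice with at least 2 nuclei. CA1 mice were at 0, 1.12 and 1.93, and VIP mice at 0 and 1.04. No count was seen in 10 Sub nuclei, which allows a share of nuclei with a count of up to 30.0%. None was seen in 3 CA3 nuclei, where the exact 95% interval reached 70.8%. Mouse values of DG, CA1 and VIP overlapped, so no order can be read among them.

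**Figure D1:**
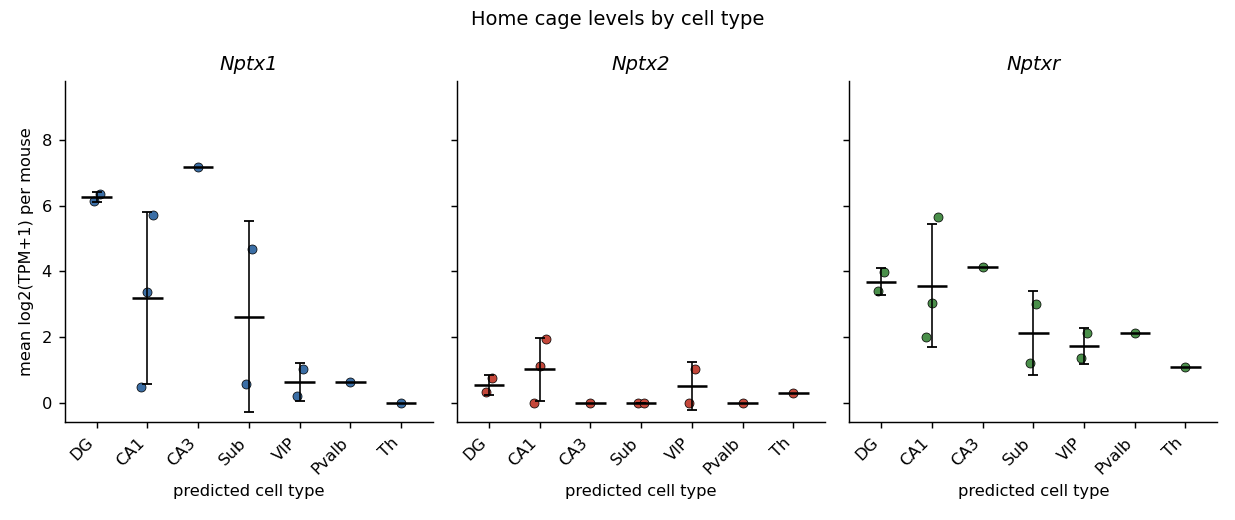
Home cage levels of the 3 genes by predicted cell type, as mean log2(TPM+1) per mouse. Points are mice with at least 2 nuclei, lines are means and bars are SD. Nptx1 separates DG and CA3 from the interneurons, and Nptx2 stays under 2 in all types.

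Between HC cell types, edgeR's quasi-likelihood test over 22640 genes called 6 genes (0.0265%) for DG against CA1, 4 (0.0177%) for VIP against CA1, and 0 (0%) for Sub or CA3 against CA1. In this order the comparisons held 1200, 1287, 1159 and 713 genes at an unadjusted p under 0.05, and DESeq2 called 675, 722, 867 and 1522. No pentraxin gene was among the calls. Nptx1 differed by 2.28 ± 2.08 (log2 fold change ± SE) between DG and CA1, at 687 against 148 CPM (Benjamini-Hochberg adjusted p = 0.945, edgeR). Nptxr differed by -3.21 ± 1.81 between VIP and CA1, at 24.3 against 226 CPM (adjusted p = 0.801, edgeR). These comparisons had 1 to 3 mice per type, and what size of difference they could detect was not tested.

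One hour after NE, FOS+ DG nuclei carried Nptx2 and their FOS- neighbours of the same mouse mostly did not. All DG nuclei of that time came from mouse 3. Its FOS- nuclei averaged 0.66 with a count in 8 of 27 nuclei (29.6%), and its FOS+ nuclei averaged 4.71 with a count in 23 of 26 (88.5%). After thinning every nucleus to 100000 counts the shares were 14.8% and 69.2%, and 12.0% in HC. Above a log2(TPM+1) of 5 were 15 of the 26 FOS+ nuclei, 1 of the 27 FOS- nuclei and 2 of the 25 HC nuclei.

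Against HC, Nptx2 was higher in the FOS+ nuclei by 5.61 ± 1.07 on the log2 scale, at 153 against 4.14 CPM (edgeR, Benjamini-Hochberg adjusted p = 0.0226). The FOS+ arm was the 1 sum of mouse 3, which was taken to vary as the other DG groups do. That comparison called 66 of 24405 genes (0.27%), 59 higher and 7 lower in FOS+ nuclei, whereas DESeq2 called 589 higher and 1186 lower and limma 186 and 303. The FOS+ nuclei carried another date than the HC nuclei, so date and exposure cannot be told apart. Without HC mouse 6 or HC mouse 7 the adjusted p was 0.0835 or 0.366, and under limma Nptx2 differed by 4.17 (adjusted p = 0.0702). The HC side held 109 Nptx2 counts, from 1 nucleus of each of the 2 mice. The single nucleus of HC mouse 3, outside the fit, held 85 more, with 0 counts of Nptx1, so that all 25 HC nuclei gave 194 counts or 6.96 CPM. When mice with 1 nucleus were kept, an alternative chosen after seeing the data, Nptx2 differed from HC by 3.76 ± 1.12 in 1 h FOS+ nuclei (edgeR, adjusted p = 0.282), 3.79 ± 0.99 at 4 h (0.143) and 3.93 ± 0.93 at 5 h (0.0734). None of the 3 Nptx2 calls against HC was kept there, with the HC side then holding the nuclei of mice 3 and 5 from the other sort gates.

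Within mouse 3, where date is shared, Nptx2 differed by 3.59 ± 1.31 between FOS+ and FOS- nuclei (edgeR, adjusted p = 1). This comparison called 11 genes (0.0451%), and 0 with the mouse as a block (1157 at an unadjusted p under 0.05), where Nptx2 differed by 3.60 (adjusted p = 0.812). FOS- nuclei at 1 h differed from HC by 2.02 ± 0.99 (adjusted p = 1), in a comparison with 1 gene called (0.0041%). In these 3 comparisons Nptx1 and Nptxr did not pass the test. Nptx1 stood at 687 CPM in HC, 707 in FOS- and 1069 in FOS+ nuclei, and Nptxr at 141, 191 and 329 CPM. By mouse level the direction of Nptx1 turned, at 6.90 in FOS- and 6.56 in FOS+ nuclei of mouse 3, a difference of -0.34.

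At 4 h and 5 h after a single NE, ARC+FOS- DG nuclei held both Nptx2 and Nptxr above the HC level. Nptx2 was at 5.20 in mouse 17 and 5.00 in mouse 21 at 4 h. At 5 h it was at 7.09 in mouse 8, 5.50 in mouse 9, 2.84 in mouse 22 and 2.09 in mouse 23. All 6 mice lay above HC mice 6 and 7, at 0.76 or less, while the lone nucleus of HC mouse 3 lay among them at 5.04. A count of Nptx2 was found in 61 of 68 nuclei at 4 h (89.7%) and in 49 of 59 at 5 h (83.1%), or 77.9% and 74.6% after thinning.

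Nptx2 rose by 5.66 ± 1.02 at 4 h, to 148 CPM (edgeR, adjusted p = 0.0145), and by 5.79 ± 1.00 at 5 h, to 184 CPM (adjusted p = 0.0129). Both calls were lost when mice with 1 nucleus were kept. The 4 h comparison called 60 genes (0.246%), 60 higher and 0 lower than HC, and the 5 h comparison 64 (0.262%), 57 higher and 7 lower. These splits differed by tool, with 813 higher and 198 lower at 4 h and 1330 and 657 at 5 h by DESeq2, and 135 higher and 350 lower at 4 h and 145 and 1189 at 5 h by limma. The median of all genes at 4 h was shifted by 0.23 under the TMM scaling and by 0 under DESeq2's size factors, with which Nptx2 rose by 5.39 at 4 h (adjusted p = 0.0219, edgeR). The 4 h call was lost without mouse 21 (adjusted p = 0.0605), HC mouse 6 (0.0686) or HC mouse 7 (0.347), and the 5 h call without HC mouse 7 (0.247). The 1 h, 4 h and 5 h comparisons share the 2 HC mice. The later nuclei were also selected for ARC protein and carried other dates than the HC nuclei. Time after NE, ARC selection and date therefore cannot be told apart.

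Nptxr was at 5.92 and 7.00 in the 2 mice at 4 h, and at 4.58, 5.89, 7.53 and 7.73 in the 4 mice at 5 h. All lay above HC mice 6 and 7, at 3.39 and 3.99. Nptxr rose by 2.26 ± 0.47 at 4 h, from 141 to 669 CPM (edgeR, adjusted p = 0.0460), and by 2.13 ± 0.43 at 5 h, to 572 CPM (adjusted p = 0.0432). Both values stood just under the threshold of 0.05. With mice of 1 nucleus kept the differences were 2.95 (adjusted p = 0.0485) and 2.85 (adjusted p = 0.0261), and the single HC nuclei of mice 3 and 5 were at 1.96 and 5.20. With size factors in place of TMM the changes were 1.92 (adjusted p = 0.160) and 1.98 (adjusted p = 0.0574). Both calls were also lost without a low-count filter (adjusted p = 0.0557 at 4 h and 0.0535 at 5 h), with Arc-high nuclei kept (0.0526 and 0.0514) and with mice split by date (0.145 and 0.110), and the 4 h call under limma (0.0787). The 4 h call was lost without any one of the 4 mice, with adjusted p of 0.426 without mouse 17, 0.0643 without mouse 21, 0.159 without HC mouse 6 and 0.432 without HC mouse 7. The 5 h call was lost without mouse 8 (0.0691), mouse 9 (0.0729), HC mouse 6 (0.135) or HC mouse 7 (0.341).

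Nptx1 did not pass the test at either time. It was at 7.18 and 7.90 in the mice at 4 h and at 3.60, 4.87, 6.88 and 7.16 at 5 h, against 6.15 and 6.37 in HC. The 4 h mice lay above HC, and the 5 h mice lay on both sides of it. The differences were 0.97 ± 0.42 at 4 h (edgeR, adjusted p = 0.853) and -0.15 ± 0.36 at 5 h (adjusted p = 0.988).

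**Figure D2:**
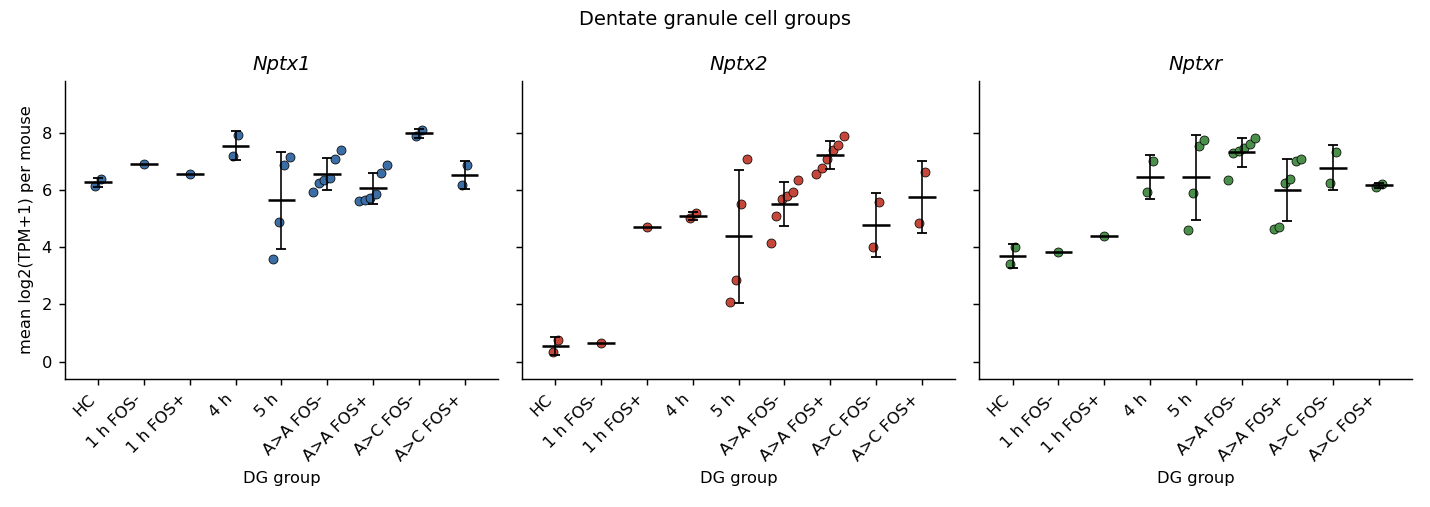
Levels of the 3 genes in the 9 DG groups, as mean log2(TPM+1) per mouse. Points are mice with at least 2 nuclei, lines are means and bars are SD. Nptx2 lies under 1 in HC and 1 h FOS- mice and above 2 in all other mice, while Nptx1 is present in every group.

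The 4 mice at 5 h split by date. Of 96 nuclei at 5 h, 59 passed the read and gene thresholds, against 68 of 74 at 4 h. Mice 8 and 9, with a median of 366874 counts per nucleus, averaged 6.30 for Nptx2, 7.02 for Nptx1 and 7.63 for Nptxr. Mice 22 and 23, with a median of 1687363 counts per nucleus, averaged 2.46, 4.24 and 5.24. All 3 genes were thus lower on the more deeply sequenced date, whose mice gave 10 and 6 used nuclei against 22 and 21. The part of date in this difference was not tested.

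Single nuclei within each group ranged widely. In HC the median Nptx2 level was 0 and the highest 5.76. In 1 h FOS+ nuclei the median was 5.90 and the highest 8.82, at 4 h 6.04 and 8.94, and at 5 h 6.48 and 9.66. Each of these groups still held nuclei at 0. Nuclei above 5 made up 64.7% at 4 h and 66.1% at 5 h.

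**Figure D3:**
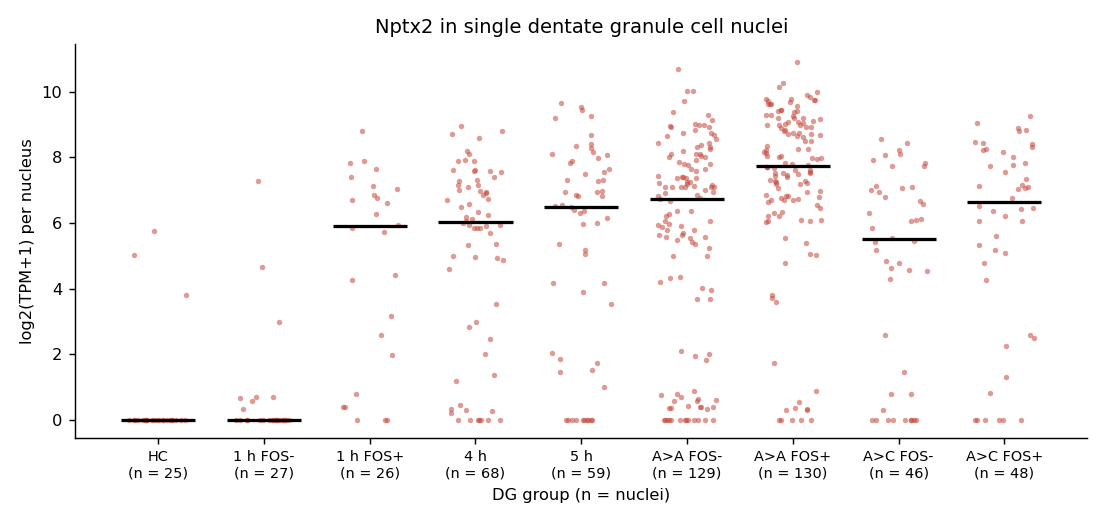
Nptx2 in single DG nuclei, as log2(TPM+1) per nucleus, with each point a nucleus, spread sideways only to be seen, and each line the median of a group. The medians are 0 in HC and 1 h FOS- nuclei and at least 5.90 at 4 h, at 5 h and in 1 h FOS+ nuclei, and every group has nuclei at 0.

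After re-exposure to the same environment, Nptx2 was higher and Nptxr lower in FOS+ than in FOS- nuclei at the level of the mouse. Nptx2 was at 5.09, 5.68, 6.33, 5.79, 5.92 and 4.15 in the FOS- nuclei of mice 19, 20, 24, 25, 26 and 27. In the FOS+ nuclei of mice 15, 16, 24, 25, 26 and 27 it was at 7.56, 7.06, 6.78, 7.40, 6.56 and 7.86. FOS- mice 19 and 20 averaged 6.46 over the nuclei of 1 of their 2 dates and 3.99 over those of the other. The part of date in this difference was not tested. By the level over all nuclei of a mouse, the groups did not overlap. The means were 5.49 ± 0.77 (SD, n = 6 mice) and 7.20 ± 0.49 (SD, n = 6 mice), a difference of 1.71 (two-sided exact permutation test, p = 0.00216, the smallest value that 6 against 6 sums can give). In summed counts the groups overlapped, since FOS+ mouse 16, at 357 CPM, lay below FOS- mice 24 and 26, at 469 and 368 CPM. The difference in log2(CPM+1) was 1.15 (two-sided exact permutation test, p = 0.00866). Because 4 mice are on both sides, this test treats as separate sums that come from the same animals. In mice 24 to 27, which gave both kinds of nuclei on shared dates, FOS+ exceeded FOS- nuclei by 0.45, 1.61, 0.64 and 3.71. Nptx2 was higher in 4 of 4 mice, by a mean of 1.60, and a two-sided exact sign-flip permutation test within these mice, chosen after seeing the data, gave p = 0.125, the smallest that 4 pairs can give. This test cannot pass 0.05 with 4 pairs.

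Nptxr differed in the opposite direction. In the same order of mice it was at 7.81, 7.59, 7.36, 7.29, 7.47 and 6.33 in FOS- nuclei, and at 7.00, 6.39, 4.65, 4.70, 6.25 and 7.07 in FOS+ nuclei. Mice 24 and 25 had the lowest FOS+ values. The groups had means of 7.31 ± 0.51 and 6.01 ± 1.08 (SD, n = 6 mice each). They overlapped, and the difference was -1.30 (two-sided exact permutation test, p = 0.0173). Within mice 24, 25, 26 and 27 it was -2.71, -2.59, -1.23 and 0.75. Nptxr was lower in 3 of 4 mice, by -1.44 on average (exact sign-flip permutation test within mice, p = 0.25). The exception, mouse 27, depended on the scale, since in summed counts Nptxr was lower in FOS+ nuclei of 4 of 4 mice, at 729 against 783 CPM in mouse 27.

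Nptx1 averaged 6.56 ± 0.56 in FOS- and 6.05 ± 0.54 in FOS+ nuclei (SD, n = 6 mice each), and the groups overlapped. The difference of -0.51 did not pass (two-sided exact permutation test, p = 0.132). Within mice 24 to 27 Nptx1 was lower in FOS+ nuclei in 4 of 4, with differences of -0.64, -1.53, -0.26 and -0.70 (exact sign-flip permutation test within mice, p = 0.125). In summed counts the direction turned in mouse 26, at 770 CPM in FOS+ against 638 CPM in FOS- nuclei, and the fit with the mouse as a block gave 0.0098 for Nptx1. These permutation p-values are unadjusted, and 3 genes were tested. FOS- mice 19 and 20, each on 2 dates, and FOS+ mice 15 and 16 carried dates with no A>A nuclei of the other kind.

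The fit across all genes did not call any of the 3 in A>A. Nptx2 differed by 1.02 ± 0.49 (268 against 561 CPM, edgeR adjusted p = 0.324), Nptxr by -0.74 ± 0.26 (865 against 528 CPM, adjusted p = 0.261) and Nptx1 by -0.11 ± 0.24 (adjusted p = 0.953). Here 10 genes passed (0.041%) by edgeR and 878 by DESeq2, and 3762 had an unadjusted p under 0.05. With the mouse as a block 0 genes passed, and 1612 had an unadjusted p under 0.05. Nptx2 then differed by 1.08 (edgeR, adjusted p = 0.622).

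**Figure D4:**
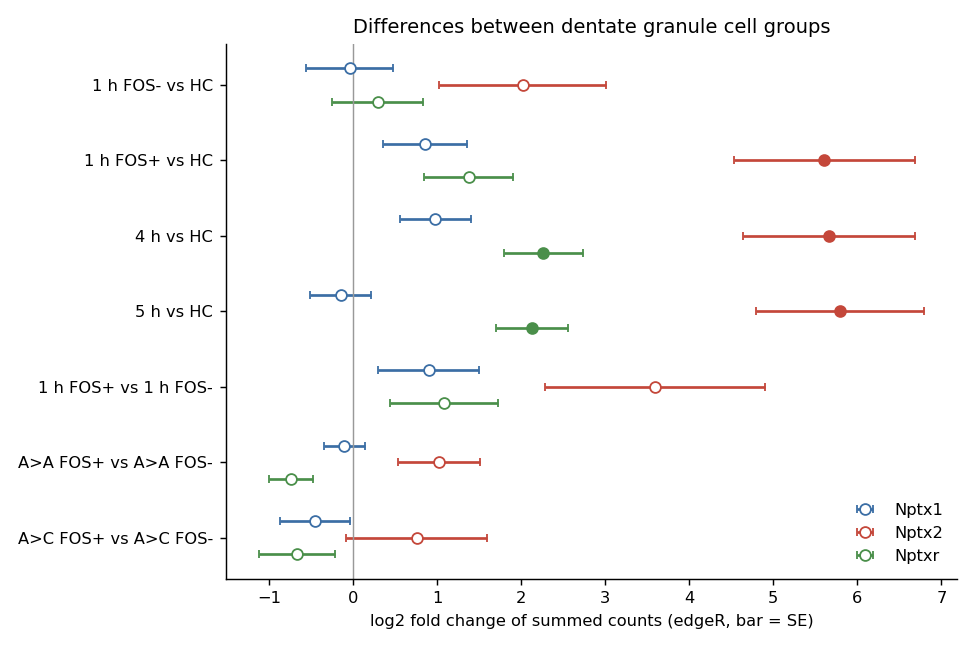
Log2 fold changes of summed counts between DG groups (edgeR), with bars showing SE. Filled points have an adjusted p under 0.05 and open points do not, and each 1 h group is 1 mouse whose spread is taken from the other DG groups. Against HC, Nptx2 is filled at 4 h, at 5 h and in 1 h FOS+ nuclei, Nptxr at 4 h and 5 h, and Nptx1 nowhere.

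After re-exposure to a different environment, Nptx2 was at 3.99 and 5.57 in the 2 mice with FOS- nuclei and at 4.85 and 6.62 in the 2 with FOS+ nuclei. The values overlapped. Nptxr was at 6.22 and 7.32 against 6.10 and 6.22, and Nptx1 at 7.87 and 8.08 against 6.18 and 6.87. Nptx1 was thus lower in both FOS+ mice. The FOS- and FOS+ nuclei came from different mice and dates, so date and FOS state cannot be told apart. edgeR called 0 of 24405 genes here (0%), with 1089 at an unadjusted p under 0.05 and 1118 called by DESeq2, and the differences of the 3 genes were 0.76 ± 0.84, -0.67 ± 0.45 and -0.46 ± 0.42 for Nptx2, Nptxr and Nptx1.

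Over the 9 DG groups the order of Nptx2 by mean ran from A>A FOS+ over A>C FOS+, A>A FOS-, 4 h, A>C FOS-, 1 h FOS+ and 5 h to 1 h FOS- and HC. The one gap in this order without overlap between neighbours lay between the 5 h mice and mouse 3 at 1 h FOS-, at 2.09 and 0.66. For Nptxr the 6 later groups stood above 1 h FOS+, 1 h FOS- and HC. The lowest of these later mice, at 4.58 in the 5 h group, was above the 4.40 of the 1 h FOS+ nuclei. For Nptx1 the A>C FOS- and 4 h groups were highest, and the 7 other groups overlapped with their neighbours.

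Outside DG, Nptx2 was also higher in FOS+ nuclei of CA1 mice. FOS- nuclei 1 h after NE were at 0, 0.82 and 0 in mice 10, 2 and 4, and FOS+ nuclei at 1.63, 3.13 and 1.79. Every FOS+ value exceeded every FOS- value, and the within-mouse differences were 1.63, 2.31 and 1.79. The limit on Arc, the gene whose levels were most like those of Nptx2, removed 11 of the 32 FOS- nuclei, and 4 of those 11 had a Nptx2 count against 2 of the 21 kept. With them kept, the mean FOS- level was 0.42 in place of 0.27 and the difference in counts 2.54. HC mice, at 0, 1.12 and 1.93, overlapped with the FOS+ values. In counts the difference was 3.53 ± 2.54 from FOS- (edgeR, adjusted p = 1.00, 7.59 against 82.3 CPM) and 1.82 ± 2.37 from HC. Both CA1 comparisons called 0 of 14507 genes (0%), with 629 and 696 at an unadjusted p under 0.05 and 220 and 244 called by DESeq2. Mouse 2 held 3777 of the 3934 FOS+ counts, at 112 CPM against 13.3 and 9.34 CPM in mice 10 and 4, and all 189 FOS- counts. With one sum left out the FOS difference ran from 1.66 to 11.8. By mouse level Nptxr was higher in FOS+ nuclei of 3 of 3 CA1 mice, by 4.00, 0.60 and 0.75, and Nptx1 of 2 of 3. In summed counts Nptxr was lower in FOS+ nuclei of mouse 2, at 117 against 149 CPM, and over the 3 mice it stood at 176 against 169.9 CPM and did not pass (edgeR, 0.86, adjusted p = 1.00).

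**Figure D5:**
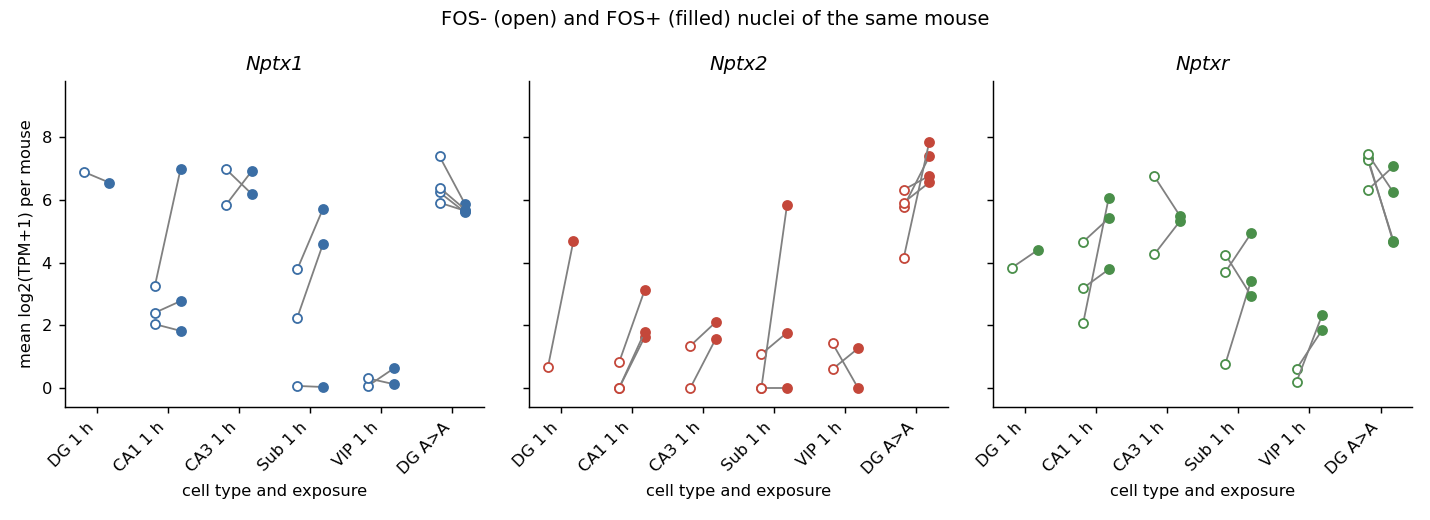
FOS- (open) and FOS+ (filled) nuclei of the same mouse joined by a line, as mean log2(TPM+1) per mouse. Nptx2 goes up in mouse 3 of DG 1 h, in 3 of 3 CA1 mice and in 4 of 4 DG A>A mice, and Nptxr goes down in 3 of 4 DG A>A mice.

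In CA3 the FOS+ nuclei of mice 10 and 4 were at 1.58 and 2.11 for Nptx2 and their FOS- nuclei at 0 and 1.35. In Sub, FOS+ nuclei of mice 10, 2 and 4 were at 1.77, 0 and 5.83, the last from 2 nuclei, and FOS- nuclei at 1.09, 0 and 0. CA3 values did not overlap, and Sub values did. Nptx2 differed by 0.84 ± 2.55 in CA3 (edgeR, adjusted p = 1) and by 5.41 ± 3.26 in Sub (adjusted p = 0.770). Those comparisons called 0 of 17179 and 0 of 14071 genes (0%), with 687 and 944 at an unadjusted p under 0.05 and 414 and 413 called by DESeq2. Nptx1 in CA3 was at 5.86 and 6.98 in FOS- and at 6.93 and 6.20 in FOS+ nuclei of mice 10 and 4, and these values overlapped.

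VIP interneurons held low levels of both secreted members. Nptx2 was at 0, 0.61 and 1.43 in FOS- nuclei and at 1.27 and 0 in FOS+ nuclei, with a count in 2 of 17 and 3 of 27 nuclei. Nptx1 was at most 0.31 in FOS- and 0.64 in FOS+ mice. Nptxr was at 0.10, 0.62 and 0.21 in FOS- and at 1.86 and 2.34 in FOS+ nuclei, which did not overlap, yet HC mice at 1.35 and 2.12 overlapped with the FOS+ mice. In counts Nptxr stood at 16.2 CPM in FOS- and 56.8 CPM in FOS+ nuclei (edgeR, adjusted p = 1). Of the 171 FOS- counts, 169 came from 1 nucleus of mouse 4, at 31.1 CPM against 0.305 and 0.536 CPM in mice 2 and 5, and the FOS+ mice 4 and 5 were at 30.5 and 90.3 CPM. With one sum left out the difference ran from 1.51 to 7.06. Neither VIP comparison called a gene among 15002 (0%), with 850 and 365 at an unadjusted p under 0.05 and 437 and 134 called by DESeq2. In Pvalb and Ivy nuclei no Nptx2 count was found, in 8 and 12 nuclei.

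Whether the FOS difference was larger in DG than in CA1 or VIP was tested as an interaction. For Nptx2 it was 0.14 ± 5.57 for DG minus CA1 and 4.62 ± 6.04 for DG minus VIP (edgeR, adjusted p = 1 for both). Each interaction called 1 of 22640 genes (0.00442%), with 320 and 452 at an unadjusted p under 0.05. With the mouse as a block 0 genes passed, with 552 and 801 at an unadjusted p under 0.05, and DESeq2 called 438 and 585. No difference between the cell types passed for any of the 3 genes, and what size of difference could be detected was not tested.

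Most DG nuclei had a count of Nptx1, so a DG nucleus with Nptx2 would mostly hold both in any case. In HC, 2 of 25 DG nuclei had counts of both secreted members and 22 had Nptx1 alone. In 1 h FOS+ nuclei 23 of 26 had both, at 4 h 60 of 68 and in A>A FOS+ nuclei 119 of 130. Nptx2 without Nptx1 was found in 34 of all 783 nuclei and both in 478. Where Nptx1 was less common the split differed. Of CA1 FOS+ nuclei, 7 had Nptx2 without Nptx1 and 11 had both, and of VIP FOS+ nuclei 3 and 0. All 3 members were found together in 466 nuclei and none in 45, among them 8 VIP nuclei in HC, 14 at 1 h FOS- and 10 at 1 h FOS+.

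By Pearson correlation of mouse levels over 61 mouse and group units, the 5 genes most like Nptx2 were Arc (0.93), Acan (0.89), Inhba (0.89), Lingo1 (0.88) and Fmnl1 (0.87). Arc encodes a regulator of AMPA receptor uptake and Inhba an activin subunit. Nptx1 was most like Nrn1 (0.85), Lmo7 (0.84), Tmem108 (0.84), Wipf3 (0.83) and Nptxr (0.83), and Nptxr most like Synpo (0.88), Car12 (0.87), Rtn4rl1 (0.85), Nrn1 (0.85) and Bdnf (0.84). Over the 26 DG units alone, Nptx2 was most like Cltb (0.93), Arc (0.89), Fmnl1 (0.88), Lingo1 (0.87) and Epha10 (0.85), and its correlation with Nptx1 was 0.13. The units share mice, dates and the ARC sort, and FOS- nuclei with high Arc were left out of the first experiment, so these values only describe the samples.

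Among the genes of the same system, the AMPA receptor subunits and auxiliary proteins held 1 called gene in DG. All 21 listed were tested, and in DG 1 h FOS+ nuclei against HC 1 passed as higher and 0 as lower, beside 0.27% of all genes. That gene was Nrn1, which encodes the GPI-anchored protein neuritin. It stood at 7.04 ± 0.15 (SD, n = 2 mice) in HC and at 10.7 in mouse 3, the 1 mouse of that arm, and was higher by 2.85 ± 0.57 (edgeR, adjusted p = 0.0305). Without HC mouse 6 or HC mouse 7 the difference was 3.39 (adjusted p = 0.0338) or 2.47 (adjusted p = 0.430), and between FOS+ and FOS- nuclei of mouse 3 it was 3.05 ± 0.74 (adjusted p = 0.313). In the other 6 DG comparisons 0 of the 21 passed, where between 0% and 0.262% of all genes did, so nothing about the list can be read from these counts. Their median log2 fold change was 0 in 1 h FOS+ nuclei, -0.07 at 4 h and 0.48 at 5 h against HC, beside 0, 0.23 and 0 over all genes tested. Gria2, the subunit that limits calcium entry, was the most abundant and ran from 9.61 to 10.8 over the 9 DG groups.

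Of the 5 genes whose proteins bind or cleave neuronal pentraxins, none passed in any DG comparison, where between 0% and 0.27% of all genes passed. Rcn2, encoding a calcium-binding protein of the secretory pathway, ran from 1.85 to 4.40 over the DG groups and Adam17 from 2.00 to 2.95. The complement genes C1qa, C1qb and C1qc were all under 0.38. Of the 7 other genes with a pentraxin domain, 4 were tested in DG and none passed, beside the same shares of all genes. A count of 0 from lists of this size says nothing about their members. Svep1 ran from 1.75 to 2.38, Crp reached 0.50 and Ptx3 0.80, and Apcs, Mptx1 and Mptx2 were at 0 in all DG groups.

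Of 9 activity genes listed for reference, 4 passed as higher in the 1 h FOS+ nuclei of mouse 3 against HC (Arc, Homer1, Bdnf and Inhba) and 0 as lower, beside 0.27% of all genes. The Homer1 call was lost without HC mouse 6 (edgeR, adjusted p = 0.117) or HC mouse 7 (0.371), and the Bdnf call without HC mouse 7 (0.128). At 4 h and at 5 h 3 rose (Arc, Bdnf and Inhba) and 0 fell, beside 0.246% and 0.262% of all genes. The Bdnf call was lost at 4 h without mouse 21 (0.0811) or HC mouse 7 (0.162), and at 5 h without HC mouse 6 (0.0753) or HC mouse 7 (0.302). Homer1, a scaffold gene, was at 1086 CPM in 1 h FOS+ nuclei and at 98.5 and 45.7 CPM at 4 h and 5 h, whereas Nptx2 was at 153, 148 and 184 CPM. In A>A none of the 9 passed, where 0.041% of all genes did. Arc itself was used to choose nuclei, through the ARC sort of the later experiment and the Arc limit of the first.

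Markers of other cells were also present in the DG sums. The 10 glial and vascular genes together ran from 71.8 to 679 CPM over the DG mice, with Mbp the most abundant, and were at 248 and 392 CPM in the HC mice, where Nptxr stood at 141 CPM and Nptx2 at 4.14 CPM. Mbp, which encodes a myelin protein, was above 1 on the log2(TPM+1) scale in 61.5% of the DG nuclei of the first experiment and in 46.3% of the later ones. They stood at 288 and 119 CPM in the 4 h mice and at 159, 511, 83.3 and 71.8 CPM in the 5 h mice 8, 9, 22 and 23. The groups overlapped, and the HC values lay within the range of the later ones. At 4 h the CA1, GABAergic and VIP markers had median log2 fold changes of 2.80, 2.56 and 4.87 against HC, beside 0.23 over all genes. At 5 h these medians were -0.78, 1.12 and 0.069, beside 0 over all genes. The glial and vascular, Pvalb, Sub and Th markers were at 1.63, 1.35, 0.70 and 0.53 at 4 h. At 5 h they were at 0.71, 0.78, 0.84 and 1.87. The DG and CA3 markers were at -0.65 and -0.68 at 4 h and at -0.48 and -2.11 at 5 h. Slc17a7 was at 0.23 at 4 h and -0.57 at 5 h. No gene of these lists passed at either time, beside 0.246% and 0.262% of all genes. A count of 0 from lists of this size says nothing about their members. In the 1 h comparison with HC the FOS+ arm was mouse 3 alone, and its spread was taken from the other DG groups. Among the 3 Ivy markers, Npy, which encodes neuropeptide Y, passed the test against HC in the same comparisons as Nptx2. It stood at 342 CPM in 1 h FOS+ nuclei (edgeR, adjusted p = 0.00750), 591 CPM at 4 h (0.00399) and 400.5 CPM at 5 h (0.00829), against 1 count or 0.0380 CPM in HC. The Npy calls were lost without HC mouse 7, with adjusted p of 0.174, 0.127 and 0.158 at 1 h, 4 h and 5 h, and without HC mouse 6 at 1 h (0.0668) and 5 h (0.0529). Nos1 and Lamp5, the other Ivy markers, did not pass. Of all genes, 0.27% passed at 1 h, 0.246% at 4 h and 0.262% at 5 h. Of the 3 Ivy markers, 2 lay above HC in 1 h FOS+ nuclei and at 4 h, and Npy alone at 5 h. Among all genes tested 41.7%, 55.2% and 49.8% lay above HC. The median log2 fold changes of the 3 Ivy markers were 3.69, 1.73 and -4.34. No count of Nptx2 was found in the 12 Ivy nuclei. The DG nuclei in the fit were sorted as PROX1+CTIP2+, and in the first experiment also on NEUN. The part of glia, of Ivy cells or of the other cell types in the pentraxin values was not tested.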

How the data were processed

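The authors trimmed single-end reads of SmartSeq2 libraries, aligned them with Bowtie and quantified genes with RSEM on mm10 with Ensembl annotation (release not given in the sources used here). They deposited expected counts, which were whole numbers in these tables, and log2(TPM+1) values. Strand was not stated to be used. As in the study, a nucleus was kept if it had 100000 or more alignable reads and if log2(TPM+1) exceeded 1 for at least 4000 genes, and FOS- nuclei of HC and 1 h with Arc above 2.5 were left out.

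The deposited expected counts were summed per mouse and group (at least 2 nuclei) and tested with edgeR 4.0.16 (TMM, filterByExpr, quasi-likelihood test) in R 4.3.3, with Benjamini-Hochberg adjustment over all genes tested and a threshold of 0.05. DESeq2 1.42.0, limma 3.58.1 on the log2(TPM+1) means, DESeq2's size factors, no low-count filter, the Arc-high nuclei kept, mice split by date, the mouse as a block and leaving out each sum were the alternatives. Keeping mice with 1 nucleus in DG and exact sign flips within A>A mice were added after seeing the data. Fits that left out a sum kept the dispersion trend of the full fit. Permutation tests used scipy 1.17.1. Intervals of shares are exact binomial (Clopper-Pearson, 95%) and limits for 0 nuclei use 3 counts; both cover counting error only. The scripts were tested on simulated counts with a smaller dispersion than the fits of these data gave. That test checked the code only and says nothing about the calls or missed calls here.

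The 3 genes and the gene lists were chosen with earlier results of these data known. Named genes were the 3 members, list members that passed the test or otherwise the 3 with the highest mean, and the 5 genes most like each member by Pearson correlation. Gria2, C1qb, C1qc, Apcs, Mptx1, Mptx2, Npcd and some of the markers were named outside this rule. FOS+ and FOS- sums with one mouse number came from the same animal, which pairs them. The correlation of their deviations from group means over 12886 genes ran from 0.0716 to 0.113 in CA1, 0.0378 to 0.0640 in VIP, 0.0441 to 0.0876 in Sub and 0.174 to 0.292 in A>A, and was 0.0892 in CA3. In A>A, mouse 25 (0.174 against 0.259) and mouse 27 (0.292 against 0.300) correlated more with another mouse than with itself.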

Additional observations from a re-analysis of the deposited data

Results flagged for a closer look

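Nptxr in the A>A FOS- nuclei of mouse 27 was at 6.33 on the log2(TPM+1) scale, and the 5 other mice of that group lay between 7.29 and 7.81. It stood apart from the rest by a Dixon test, among 9 gene and group combinations checked, and chance alone sets apart about 1 in 20. Mouse 27 was also the one mouse of 4 in which Nptxr was higher in FOS+ than in FOS- nuclei by this level; in summed counts it was lower there too, at 729 against 783 CPM.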

How the results depend on the processing

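Of 387 results for the 3 genes in the fits across all genes under other settings, 352 kept direction and side of the threshold, 13 lost the call, 1 gained it and 21 changed sign; none that changed sign had passed the test. With one sum left out, 222 of 270 kept both, 14 lost the call and 34 changed sign. The cause of these changes was not tested, and leaving out a sum also leaves fewer samples. With mice of 1 nucleus kept, an alternative chosen after seeing the data, Nptx2 against HC was 3.76 at 1 h FOS+ (adjusted p = 0.282), 3.79 at 4 h (0.143) and 3.93 at 5 h (0.0734), none of them called; the HC nuclei added were sorted as PROX1-CTIP2+ and PROX1+CTIP2-. Nptx1 was 0.87 at 1 h FOS- and 0.75 at 5 h. Nptx2 kept its call at 4 h and 5 h in every other setting that left out no sum. At 1 h FOS+ it was 4.17 under limma (adjusted p = 0.0702). Nptx2 between FOS+ and FOS- DG nuclei at 1 h was 3.51 under DESeq2 (adjusted p = 0.0494). Nptxr at 4 h was 1.92 with size factors, 2.28 without a filter (adjusted p = 0.0557), 2.76 under limma (0.0787), 2.24 with Arc-high nuclei kept (0.0526) and 2.24 with mice split by date (0.145). At 5 h it was 1.98, 2.15 (0.0535), 2.11 (0.0514) and 2.14 (0.110) under the same settings without limma.

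Under limma, Nptx1 was -0.34 in DG 1 h FOS+ against FOS-, 0.64 in DG 1 h FOS- against HC, 0.14 in CA3, -0.57 in Sub against CA1 in HC and -1.64 for DG minus CA1. Nptx2 was 0.11 in VIP against HC and -0.50 in VIP against CA1 in HC, and Nptxr 0.13 in DG and 0.57 in CA3 against CA1 in HC and -1.23 for DG minus CA1. For DG minus CA1, DESeq2 gave -0.061 for Nptx1 and -0.085 for Nptx2, and size factors -0.061 for both. With Arc-high nuclei kept, Nptx1 in Sub against CA1 was -0.49. With mice split by date, Nptx2 in VIP against CA1 was -0.51. With the mouse as a replicate block, Nptx1 in A>A was 0.0098 and Nptx2 for DG minus CA1 -2.47. None of the 3 genes was called with the block, and none had a call to lose in the comparisons it was run on. The comparisons with HC were not fitted with the block. Over A>A dates with both kinds of nuclei, Nptx1 was 0.0014. Over the mice with both kinds, the mouse means differed by -0.78 for Nptx1 (exact permutation p = 0.0286) and -1.44 for Nptxr (p = 0.0571), a test that ignores the pairing. With the mouse as a block, by exact sign flips within these mice and chosen after seeing the data, the mean differences were -0.78 for Nptx1 (p = 0.125), 1.60 for Nptx2 (p = 0.125) and -1.44 for Nptxr (p = 0.25), none of which passed.

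With one sum left out, Nptx2 against HC ran from 5.30 to 6.04 at 1 h FOS+, 5.35 to 6.10 at 4 h and 4.84 to 6.23 at 5 h, and Nptxr from 1.82 to 2.60 at 4 h and 1.92 to 2.39 at 5 h. Ranges that crossed 0 were, for Nptx1, -1.13 to 2.36 in CA1 FOS+ against FOS-, -1.13 to 2.03 in CA1 against HC, -1.10 to 0.086 in CA3, -0.36 to 0.074 at 5 h, -0.20 to 0.036 in A>A, -1.40 to 2.07 for DG minus CA1, -4.33 to 1.18 for DG minus VIP, -5.90 to 1.25 in Sub against CA1, -0.31 to 5.29 in VIP FOS+ against FOS- and -6.34 to 4.26 in VIP against HC. For Nptx2 they were -0.043 to 2.28 in CA1 against HC, -0.16 to 9.97 in CA3, -0.016 to 1.39 in A>C, -7.77 to 1.98 for DG minus CA1, -9.61 to 1.11 in VIP against CA1, -9.42 to 0.069 in VIP FOS+ against FOS- and -9.17 to 8.70 in VIP against HC. For Nptxr they were -0.38 to 0.96 in CA1 against HC, -1.03 to 0.37 in CA3, -0.41 to 0.75 for DG minus CA1, -1.04 to 0.23 in DG against CA1 and -0.37 to 0.63 in Sub.

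DESeq2 called 1050 genes in DG 1 h FOS+ against FOS- and 1011 at 4 h, where edgeR called 11 and 60, and size factors gave 38 at 4 h.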

Other observations

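The 35 FOS- nuclei left out for high Arc came from 6 mice and are described here by values alone. Nptx1 had a count in 22 of them, Nptxr in 24 and Nptx2 in 7, with a highest Nptx2 level of 6.93 on the log2(TPM+1) scale. In the 11 such CA1 nuclei at 1 h, Nptx2 had a count in 4, and in the 16 CA1 nuclei in HC in 2, where the highest level was 2.57.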
